A study of Rattus norvegicus with 24 samples.

Results

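The cells' main enzymatic defences against reactive oxygen, together with a metallothionein, were read in lung and in blood of 12 male rats of the strain labelled CDF Fisher 344, an inbred laboratory strain, labelled as aged 3 mo. Of these rats, 6 had inhaled crystalline silica, the mineral dust that causes silicosis, at 15 mg/m3 for 6 hours a day on 5 days, and 6 had breathed filtered air. The rats were killed 32 weeks later, and lung and blood of each rat were hybridised to Illumina rat BeadChips, which gave 4 groups of 6 arrays: lung and blood of air rats and lung and blood of silica rats. No rat carried a transgene or a further treatment per the labels, and a tissue here is a mixture of cell types. Globin mRNA was depleted per the labels' extraction text, a text for blood that the labels repeat for lung. The members are the 10 genes HMOX1, MT1A, SOD1, SOD2, SOD3, NQO1, GCLC, GCLM, TXNRD1 and CAT, chosen by their symbols in the array files and each represented by 1 probe of the 21792 on the array, which carry 21685 different symbols. Symbols are written in capitals, as in the files.

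Superoxide dismutases turn superoxide into hydrogen peroxide in the cytosol (SOD1), in mitochondria (SOD2) and outside the cell (SOD3), and catalase (CAT) breaks hydrogen peroxide down. The ligase subunits GCLC and GCLM make the precursor of glutathione, thioredoxin reductase 1 (TXNRD1) keeps thioredoxin reduced, and NQO1 reduces quinones. Haem oxygenase 1 (HMOX1) degrades haem, and metallothioneins such as MT1A bind zinc, copper and cadmium. Transcription of HMOX1, NQO1, GCLC, GCLM and TXNRD1 is a textbook response to the factor NRF2, which binds antioxidant response elements, while metallothionein genes answer to metals through metal response elements and SOD2 to inflammatory signals. In lung, SOD3 is an abundant protein of the vessel wall and the extracellular matrix, and HMOX1 is prominent in macrophages that take up red cells.

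Promoter sequence was looked at for motifs of those response elements, as a description of the genes and not of binding. RefSeq windows from 250 bases before to 50 bases after the start site, on build GRCr8, matched 8 of the 10 members in 9 windows. HMOX1 and SOD3 had no window. The core of the antioxidant response element, TGACNNNGC read on both strands, was in a window of 4 members, MT1A, SOD2, TXNRD1 and GCLM, and in 12.1% of all 33469 windows of that length. Metal response element cores, TGCACNC or TGCGCNC on both strands, numbered 6 in the MT1A window and 2 in that of GCLM. At least 1 such core was in 24.2% of all windows, and 6 or more were in 13 windows, or 0.0388%. No motif matches overlapped in these windows. The 4 windows that hold an antioxidant response element core are printed because 3 of these genes rose in silica lung and GCLM had the highest ratio of blood to lung among the members. They run 5′ to 3′ on the gene's strand, in lower case, and capitals mark the matches to either motif.
MT1A (RefSeq symbol Mt1), chr19:10832926-10833225, minus strand: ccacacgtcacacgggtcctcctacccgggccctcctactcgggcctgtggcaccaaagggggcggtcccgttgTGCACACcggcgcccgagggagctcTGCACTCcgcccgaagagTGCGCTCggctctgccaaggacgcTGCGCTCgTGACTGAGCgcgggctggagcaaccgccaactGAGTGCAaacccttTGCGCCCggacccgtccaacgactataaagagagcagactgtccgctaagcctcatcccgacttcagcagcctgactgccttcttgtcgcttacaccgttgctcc
SOD2, chr1:50050119-50050418, minus strand: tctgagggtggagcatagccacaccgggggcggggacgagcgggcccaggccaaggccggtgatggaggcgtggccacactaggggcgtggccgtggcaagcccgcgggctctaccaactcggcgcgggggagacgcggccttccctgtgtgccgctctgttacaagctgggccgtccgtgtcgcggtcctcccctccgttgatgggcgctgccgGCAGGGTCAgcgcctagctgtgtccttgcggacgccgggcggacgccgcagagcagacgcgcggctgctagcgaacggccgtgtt
TXNRD1, chr7:22755855-22756154, minus strand: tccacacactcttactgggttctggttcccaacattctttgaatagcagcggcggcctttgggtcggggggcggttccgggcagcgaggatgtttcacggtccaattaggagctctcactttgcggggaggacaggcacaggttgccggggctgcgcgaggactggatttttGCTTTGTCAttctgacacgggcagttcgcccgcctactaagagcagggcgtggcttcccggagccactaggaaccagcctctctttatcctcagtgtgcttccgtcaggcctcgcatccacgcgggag
GCLM, chr2:213031885-213032184, plus strand: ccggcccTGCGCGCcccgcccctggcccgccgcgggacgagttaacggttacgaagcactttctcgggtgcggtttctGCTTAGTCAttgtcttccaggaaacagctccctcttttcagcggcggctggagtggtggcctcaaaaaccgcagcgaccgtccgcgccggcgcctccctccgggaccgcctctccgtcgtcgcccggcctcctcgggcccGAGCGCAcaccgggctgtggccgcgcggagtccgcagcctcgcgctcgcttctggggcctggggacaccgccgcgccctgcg
Counted from the start site, the antioxidant response element core lies at -101 to -93 in MT1A, at -35 to -27 in SOD2, at -78 to -70 for this start of TXNRD1 and at -172 to -164 in GCLM. The other TXNRD1 window and those of SOD1, CAT, GCLC and NQO1 held no match to either motif. Sequence outside the windows was not searched, so a window without a match does not show that the gene lacks such an element. Whether a core has a part in any change was not tested.

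The lung arrays detected 11013 to 11733 probes each and the blood arrays 7498 to 8469, at a median of 36 to 42 beads per probe in lung and 40 to 42 in blood. All 7 markers of alveolar type 2 cells were detected in lung, and 6 of them, surfactant protein genes included, were detected on no blood array. The first principal component of the blood arrays set 3 of them apart, air replicates 2 and 6 and silica replicate 6. The calls that use blood, and the blood correlations, were also computed without those arrays. Values below are log2 of background-corrected and quantile-normalised signals, in which a step of 1 is a doubling, and tests used limma with Benjamini-Hochberg adjustment over all probes tested, called at an adjusted p under 0.05. Array number limits the precision.

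In lung, silica rats had more HMOX1, MT1A and SOD2 mRNA than air rats and less SOD3 mRNA, in each case with no overlap between the groups of 6 rats. TXNRD1 was slightly higher, and SOD1, CAT, GCLC, GCLM and NQO1 did not pass the test. Of the 10 members, all tested, 4 were called higher and 1 lower. Over all 11285 lung probes tested, 16.1% were called in either direction, 7.59% higher and 8.53% lower. Non-overlapping groups, found for 4 members, occurred for 8.11% of the probes tested. The median log2 fold change was 0.11 over the members and -0.01 over all probes, and its median size without sign was 0.19 against 0.04. The members were chosen with earlier results of these data known, so these contrasts with all probes are only a description.

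**Figure D1:**
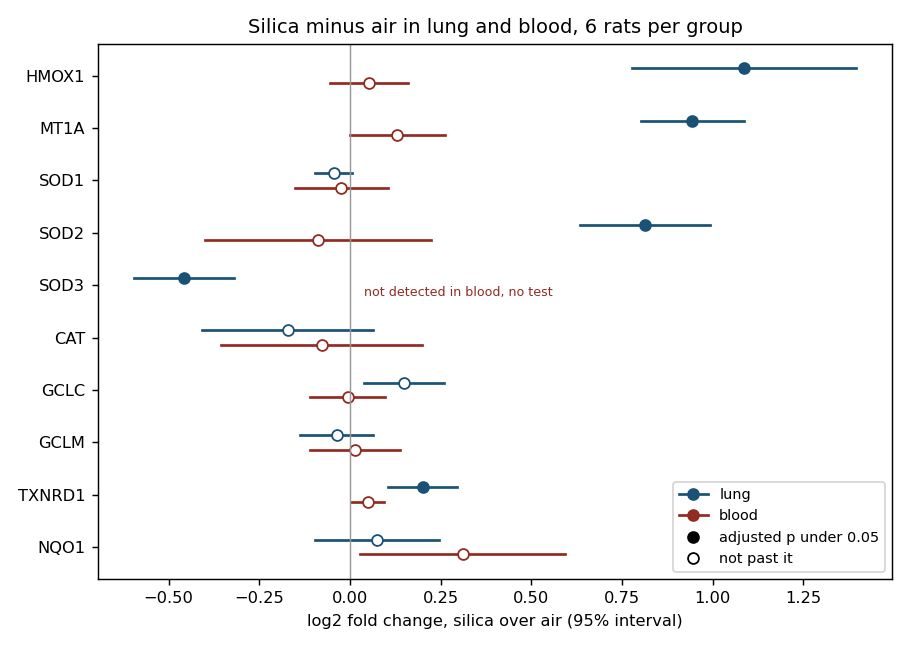
Log2 fold change of silica over air (x axis) for the 10 members in lung (blue) and blood (red), with 95% intervals, 6 rats per group; filled points have an adjusted p under 0.05. HMOX1, MT1A and SOD2 lie at 1.09, 0.94 and 0.81 in lung and SOD3 at -0.46, while no blood point is filled.

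HMOX1 had the largest change of the members. Its lowest, median and highest log2 values were 7.94, 8.43 and 8.67 in air lungs and 9.29, 9.40 and 9.73 in silica lungs. Every silica lung was therefore above every air lung, and the air lungs were the more spread out, with an SD of 0.33 against 0.17. The increase was 1.09 ± 0.14 (SE; limma, adjusted p = 0.000773), or 2.12-fold with a 95% interval of 1.71 to 2.63. The deposited signals, before any correction of this work, ran from 357 to 513 in air and from 673 to 897 in silica.

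MT1A values in air lungs were 9.17, 9.48 and 9.63 (lowest, median, highest) and those in silica lungs 10.28, 10.42 and 10.46. The silica lungs lay within a narrow band, with an SD of 0.07 against 0.15 in air. This gave a log2 increase of 0.94 ± 0.06 (SE; limma, adjusted p = 2.1e-05), the smallest adjusted p of the members, and a fold of 1.92 (95% interval 1.74 to 2.12). Metallothionein copies resemble each other in sequence, and whether this probe also binds another metallothionein mRNA was not tested.

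SOD2, the mitochondrial dismutase, ran through 9.16, 9.28 and 9.49 in air lungs and 9.83, 10.12 and 10.33 in silica lungs. Again the lowest silica lung was above the highest air lung. The difference was 0.81 ± 0.08 on the log2 scale (SE; limma, adjusted p = 0.000185), a fold of 1.76 (95% interval 1.55 to 1.99). Its cytosolic counterpart SOD1 gave 12.07, 12.15 and 12.16 in air and 12.02, 12.10 and 12.13 in silica, with 2 silica lungs below all air lungs. The SOD1 difference was -0.05 ± 0.02 (limma, adjusted p = 0.234; 95% interval -0.10 to 0.01).

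SOD3, the extracellular dismutase, went the other way. Its lowest, median and highest values were 11.37, 11.41 and 11.63 in air lungs and 10.81, 11.06 and 11.14 in silica lungs, so all 6 silica lungs were below all 6 air lungs. The log2 difference of -0.46 ± 0.06 (SE; limma, adjusted p = 0.00106) corresponds to a 1.37-fold lower level. CAT, which removes the hydrogen peroxide that dismutases make, had 9.82, 10.33 and 10.42 in air and 9.88, 10.04 and 10.32 in silica, and the groups overlapped throughout. Its difference was -0.17 ± 0.11 (limma, adjusted p = 0.342; 95% interval -0.41 to 0.06).

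Of the glutathione and thioredoxin enzymes, TXNRD1 passed the test. It had a low signal, with 6.84, 6.91 and 6.98 in air lungs and 6.95, 7.11 and 7.27 in silica lungs, and 5 of the 6 silica lungs were above all air lungs. The increase was 0.20 ± 0.04 (SE; limma, adjusted p = 0.0094), 1.15-fold. With arrays scaled to one median in place of quantiles it was 0.23 with an adjusted p of 0.0717, no longer past the threshold. GCLC, the catalytic ligase subunit, ran through 8.74, 8.84 and 9.03 in air and 8.93, 9.02 and 9.09 in silica, a difference of 0.15 ± 0.05 (limma, adjusted p = 0.0658). Without air replicate 3 or air replicate 6 its adjusted p was 0.0454 and 0.0229, past the threshold. GCLM, the modifier subunit, had group medians of 9.86 in air and 9.81 in silica, a difference of -0.04 ± 0.05 (limma, adjusted p = 0.666; 95% interval -0.14 to 0.06). NQO1 had medians of 10.77 in air and 10.84 in silica, with a difference of 0.07 ± 0.08 (limma, adjusted p = 0.603; 95% interval -0.10 to 0.24). Only silica replicate 1, at 11.18, was above all air lungs for NQO1.

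**Figure D2:**
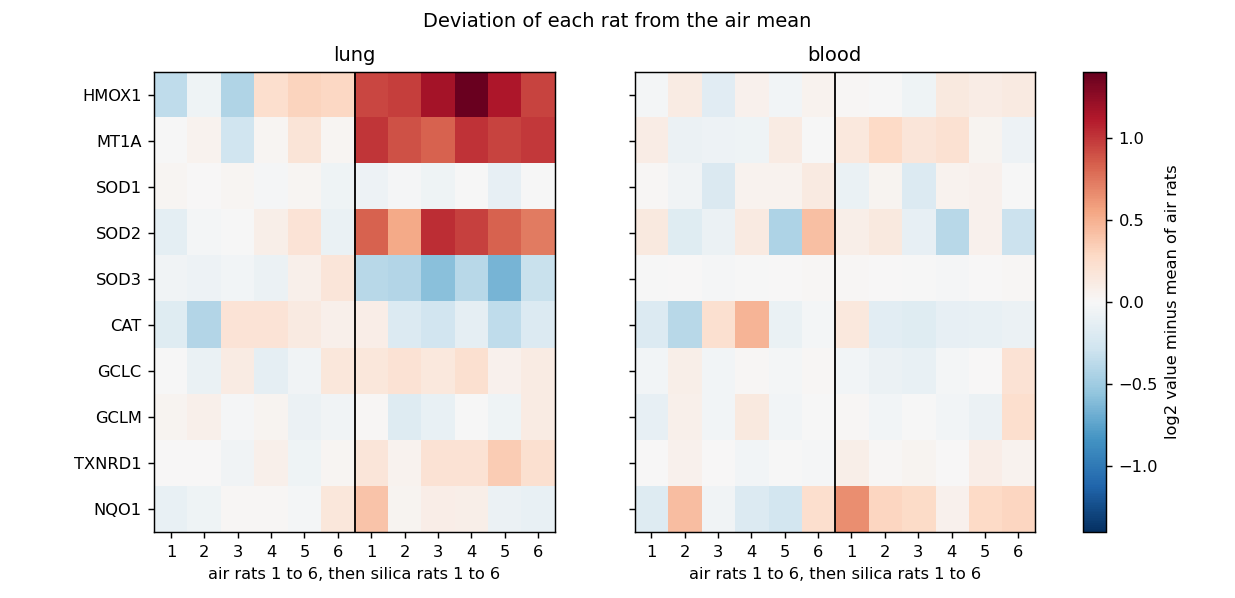
Each rat's log2 value minus the mean of the 6 air rats (colour, red higher and blue lower), for the 10 members (rows) in lung and blood, with air rats 1 to 6 left of the line and silica rats 1 to 6 right of it. In lung, HMOX1, MT1A and SOD2 are red and SOD3 blue in all 6 silica rats; in blood SOD3 was detected on no array.

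Some cell type markers also differed between the same lungs, and others did not. Of 7 macrophage markers, all detected, 5 were called higher, CD68, ITGAX, LGALS3, CTSK and GPNMB, and the summed linear signal of all 7 was 9089 to 15230 in air lungs and 15860 to 22090 in silica lungs. Without LGALS3, the brightest of them, it was 2409 to 3966 against 4465 to 6087. The sum over 4 monocyte markers was 707 to 897 against 989 to 1543, with 2 called higher, and without CD14 it was 228 to 241 against 242 to 273. The 9 neutrophil markers, 6 of them tested, summed to 1367 to 2285 against 2797 to 5311, with S100A9 and ELA2 detected on no lung array. Of these S100A8 alone was called higher and made up nearly all of the rise in the sum. It ran from 759 to 1656 in air lungs and from 2169 to 4655 in silica lungs. The other 8 summed to 608 to 640 against 628 to 668. Undetected probes keep a floor in such sums: in blood, 5 fibroblast and smooth muscle markers, 0 of them detected on 6 or more arrays, summed to 338.8 to 346.7. Small sums, as of these 8 and of the monocyte markers without CD14, may be mostly floor, so they cannot show whether those markers changed. Alveolar type 2 markers summed to 40420 to 45930 against 44930 to 54010, and 3 of 7 were called higher. Without SFTPB, the brightest, their sum was 26230 to 28880 against 29500 to 39250. Lower in silica lungs were 4 of 5 endothelial markers, VWF, CDH5, TEK and EDNRB, with sums of 16990 to 19890 against 12080 to 17130. Without CLDN5, the brightest, the endothelial sum was 10030 to 11860 against 6658 to 8892. Also lower were 4 of 6 alveolar type 1 markers, with sums of 25290 to 27440 against 21890 to 23500. Red cell markers, the globins HBB and HBA-A2 among them, summed to 38090 to 41870 against 36610 to 40060, with 3 of 9 tested called lower. Of 5 platelet markers 2 were called lower. The 5 fibroblast and smooth muscle markers summed to 1101 to 1377 against 872 to 1227, with 1 called lower. T cell markers summed to 928 to 1466 against 1388 to 2516. No marker of T cells, B cells or airway secretory cells was called. In such bulk tissue, fewer cells of a type and less RNA per cell cannot be told apart, and the part of these markers in the changes of HMOX1, SOD2 and SOD3 was not tested.

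The genes that followed each changed member most closely over the 12 lung arrays were found by Pearson's r. The arrays fall into the air and the silica group, so r is given as a description, with the value after centring on the group means. For HMOX1 they were CD68, a macrophage lysosomal protein, with r = 0.977 (0.867 within groups), the complement component C2 (0.966, 0.834 within) and H2-EA, a class II histocompatibility gene (0.966, 0.788 within). MT1A went with RETNLA, a secreted resistin-like protein (0.98), the anion exchanger SLC26A4 (0.967) and the transcription factor BATF (0.963), and these values were 0.565, 0.424 and 0.337 within groups. For SOD2 the closest were ZFAND2A, an arsenite-inducible zinc finger protein (0.977, 0.749 within), the follistatin-like FSTL4 (0.975, 0.726 within) and CEACAM10, of the carcinoembryonic antigen family (0.974, 0.729 within). SOD3 followed CHIT1, the chitinase chitotriosidase (0.976), the adenylyl cyclase ADCY9 (0.973) and the endothelial receptor kinase TIE1 (0.973), with 0.927, 0.84 and 0.85 within groups. Among the members, HMOX1 and MT1A had r = 0.601 within groups, HMOX1 and SOD2 0.535, and MT1A and SOD2 0.176. SOD2 and SOD3, which moved in opposite directions, had -0.267.

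**Figure D3:**
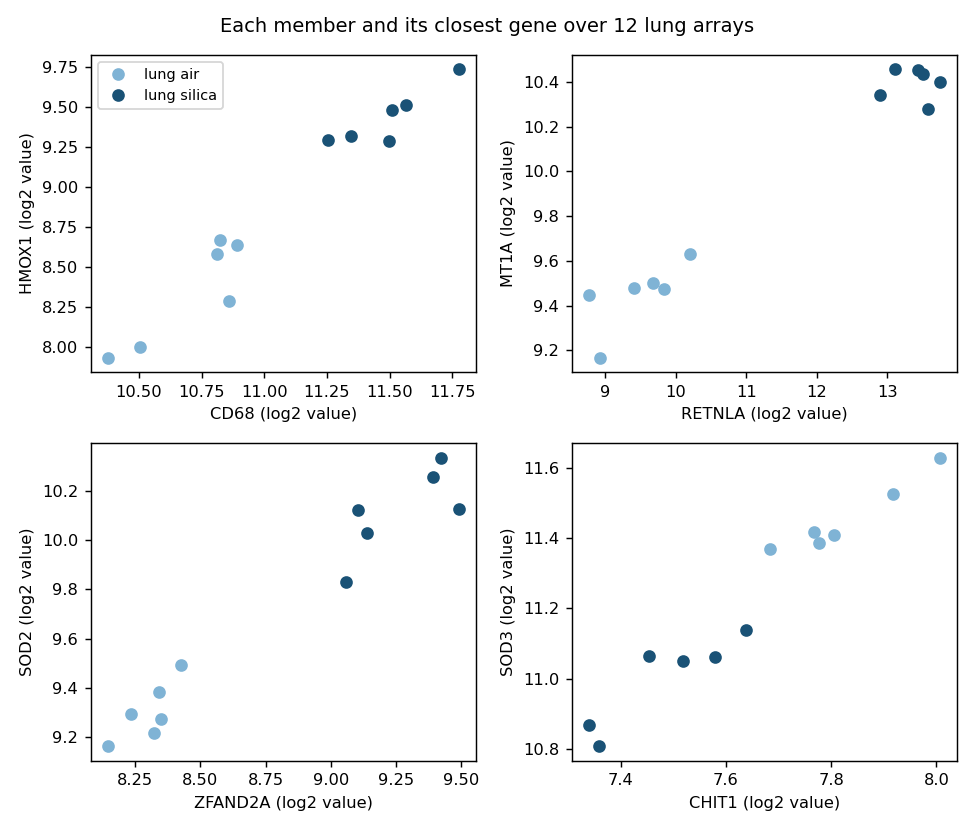
Log2 value of each of the 4 lung members with the largest change (y axes) against that of its closest gene (x axes), 1 point per lung array, light blue air and dark blue silica. The groups separate on every panel; r within groups is 0.867 for HMOX1 with CD68 and 0.927 for SOD3 with CHIT1, and 0.565 for MT1A with RETNLA.

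Other genes of the same defences were read from 7 lists of 135 genes, of which 114 had a probe and 100 were tested in lung. In all, 16 were called higher and 16 lower, or 32% beside the 16.1% of all probes, with a median log2 fold change of 0.01. The lists too were chosen with earlier results known, so this share is only a description. The list for NADPH supply holds enzymes that make NADPH, the reducing power of glutathione and thioredoxin reductases, or belong to the same pathways. It stood on the higher side, with 4 of 7 called higher and none lower. Among them were PGD at 0.46 ± 0.08, IDH1 at 0.34 ± 0.09 and TALDO1 at 0.24 ± 0.04 (SE; limma, adjusted p = 0.00313, 0.0258 and 0.00158). PGD and TALDO1 belong to the pentose phosphate pathway. IDH1 lost its call in 3 of the 12 fits that left out 1 lung array (adjusted p 0.0525 to 0.0592). Under median scaling 1 of the 7 was called, and PGD (adjusted p = 0.0508), IDH1 (0.173) and TALDO1 (0.1) were not. Of 16 genes for the detoxification of quinones, aldehydes and the like, none was called higher and 5 lower: AKR1C19, an aldo-keto reductase (-0.82 ± 0.09, adjusted p = 0.000283), PTGR1 (-0.39), CYB5R3 (-0.35), NQO2 (-0.27), a relative of NQO1, and PIR (-0.26). AKR1C19, and GPX8 below, carry RGD symbols on the array and were named through RefSeq synonyms. PIR was lost in 5 of those 12 fits (up to 0.0594). Under median scaling 2 of the 16 were called, and CYB5R3 (adjusted p = 0.103), NQO2 (0.404) and PIR (0.142) were not.

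Haem and iron genes gave 4 higher and 1 lower of 13. Haptoglobin (HP), which binds free haemoglobin, rose by 1.31 ± 0.12 (limma, adjusted p = 0.000113). Transferrin (TF, 0.71), the iron transporter SLC11A2 (0.43) and the ferritin light chain FTL1 (0.39) were also higher. The ferritin heavy chain FTH1 was at -0.06 (adjusted p = 0.472). HMOX2, the constitutive haem oxygenase, was called lower at -0.06, a call lost in 9 of the 12 fits without 1 array (up to 0.0922). Under median scaling 2 of the 13 were called, and SLC11A2 (adjusted p = 0.0647) and FTL1 (0.0815) were not.

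The glutathione list gave 3 higher and 5 lower of 27. Glutaredoxin (GLRX, 0.57) and GSTO1 (0.26) were among the higher, and GPX8 (-0.45), GSTA4 (-0.30), GSTM2 (-0.28) and the secreted peroxidase GPX3 (-0.25) among the lower. GSTM2 was lost in 5 of the 12 fits without 1 array (up to 0.067), and GPX3 without silica replicate 4 (0.051). Under median scaling 3 of the 27 were called, and GSTO1 (adjusted p = 0.215), GSTM2 (0.174) and GPX3 (0.262) were not. Of 15 thioredoxin and peroxiredoxin genes, PRDX5 (0.57 ± 0.11, adjusted p = 0.00478) and TXNDC5 (0.28) were higher and PRDX6 (-0.20) lower, and TXNDC5 was lost in 10 of the 12 fits (up to 0.0794). Under median scaling none of these 15 was called, with PRDX5 at an adjusted p of 0.0508 and PRDX6 at -0.12 (adjusted p = 0.432). In the metal list, the copper transporter SLC31A1 (0.17) and the zinc transporter SLC30A7 (0.12) were higher and CCS, the copper chaperone of SOD1 (-0.21), lower of 13, and SLC30A7 was lost in 9 of the 12 fits (up to 0.0769). Under median scaling none of the 13 was called, with SLC31A1 at 0.0629 and CCS at 0.394.

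The NRF2 list holds NRF2 itself, its regulators and related factors such as NFE2L1, and 9 of its genes were tested. SQSTM1, which binds KEAP1, was higher (0.27 ± 0.06, limma, adjusted p = 0.0114), and NFE2L1 (-0.33), CUL3 (-0.20) and GSK3B (-0.35) were lower. The NRF2 gene NFE2L2 was at -0.05 ± 0.07 (adjusted p = 0.723) and its inhibitor KEAP1 at 0.07 ± 0.08 (adjusted p = 0.631). CUL3 and GSK3B each lost the call in 7 of the 12 fits without 1 array (up to 0.0734 and 0.0625). Under median scaling none of the 9 was called, with SQSTM1 at an adjusted p of 0.154 and NFE2L1 at 0.0521.

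With arrays scaled to one median, 8 of the 100 listed genes were called, 4 in each direction, against 537 probes in all, of which 57.9% were higher in place of 47.1%. No listed gene called here changed sign under that scaling.

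**Figure D4:**
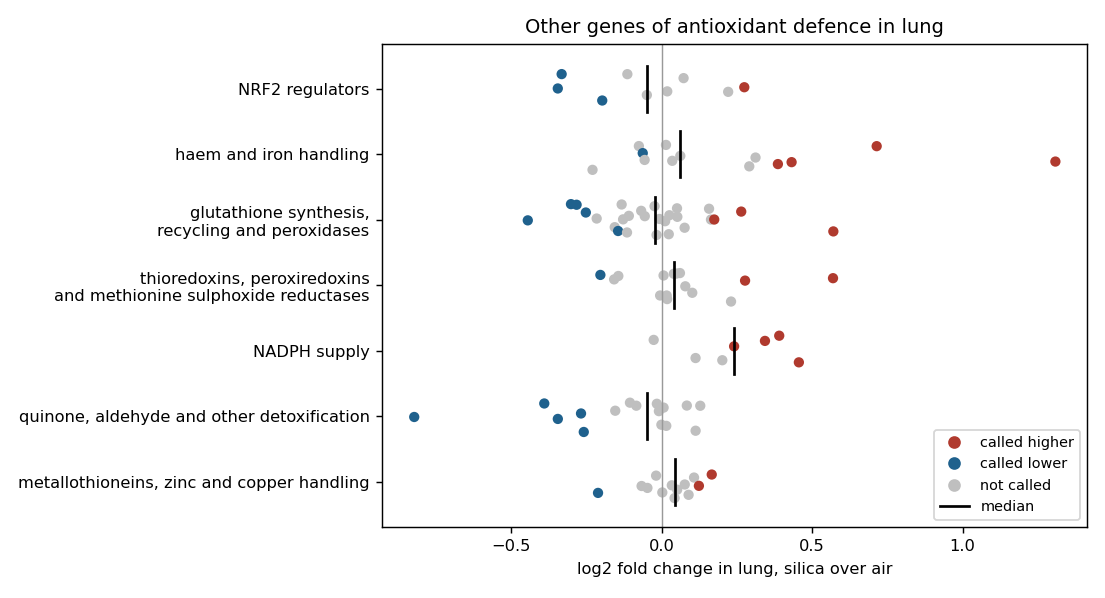
Log2 fold change in lung (x axis, silica over air) of the 100 tested genes of the 7 lists, 1 point per gene, red called higher, blue called lower, grey not called, black line the median of the list. The NADPH supply list has 4 red points and no blue one, and the list of quinone, aldehyde and other detoxification has 5 blue points and no red one.

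In blood, no member was called. Of the 10 members 9 were tested, since SOD3 was detected on none of the 12 blood arrays. Over all 7864 blood probes tested limma called 0%, 0% higher and 0% lower, although 680 had an unadjusted p under 0.05. Normalised without background correction 5 probes were called, and 7 were called on the authors' values and 18 without silica replicate 4, with no member among them in any of these settings. Groups of 6 that did not overlap were found for no member and for 0.598% of the probes. An unadjusted p under 0.05 was found for 2 members, NQO1 and TXNRD1.

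NQO1 had the largest blood difference, with values of 7.57, 7.71 and 8.26 in air blood and 7.88, 8.11 and 8.47 in silica blood. The ranges overlapped, and 1 silica rat, replicate 1, was above all air rats. The difference was 0.31 ± 0.13 (SE; limma, adjusted p = 0.528), and its 95% interval was 0.03 to 0.59. TXNRD1, detected on 11 of 12 blood arrays, had 6.43, 6.48 and 6.54 in air and 6.48, 6.53 and 6.57 in silica, a difference of 0.05 ± 0.02 (limma, adjusted p = 0.547). MT1A ran through 7.37, 7.42 and 7.57 in air and 7.39, 7.62 and 7.73 in silica. There 4 of 6 silica rats were above all air rats, and the difference was 0.13 ± 0.06 (limma, adjusted p = 0.578). HMOX1 was at 6.54, 6.71 and 6.82 against 6.64, 6.76 and 6.83. The HMOX1 difference was 0.05 ± 0.05, with a 95% interval of -0.05 to 0.16. With lung and blood arrays normalised together, the HMOX1 means were 7.47 in air blood and 7.64 in silica blood. Those of TXNRD1 were then 6.67 and 6.86 in blood, beside 6.71 and 6.84 in air and silica lung. The sizes and intervals given for these dim probes therefore hold only for blood normalised alone. SOD2 values of 7.84, 8.29 and 8.70 against 7.88, 8.24 and 8.40 gave -0.09 ± 0.14, with an interval of -0.40 to 0.22.

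The remaining blood members differed by -0.08 ± 0.13 (CAT), -0.02 ± 0.06 (SOD1), -0.01 ± 0.05 (GCLC) and 0.01 ± 0.06 (GCLM). GCLC had a low signal in blood, at a median of 6.80 in air rats, while GCLM and CAT were bright, at 13.7 and 12.16. In blood, GCLC and GCLM, whose products form one enzyme, went together over the 12 arrays with r = 0.795 within groups, while MT1A went against them with -0.791 and -0.686, as a description. Silica replicate 6, the highest silica array for GCLC and GCLM, carried much of this: without it the 3 values were 0.423, -0.631 and -0.409, and without all 3 arrays that stood apart 0.27, -0.582 and -0.328. In lung the same pair of subunits had -0.342. The genes closest to GCLM in blood were PTDSS2 (r = 0.88, 0.902 within groups), TM9SF1 (0.87) and TRPC4AP (0.867), which were 0.855, 0.682 and 0.705 without silica replicate 6, and those closest to CAT were DDB1 (0.899, 0.897 within), AASS (0.864) and DHX40 (0.863).

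Of the 7 lists, 84 genes were tested in blood and none was called, and the lowest adjusted p was 0.127, for GSTM1, a glutathione transferase, at -0.24 ± 0.04. Without silica replicate 4, GSTM1 was called lower in blood (-0.27, adjusted p = 0.0247). Among the 2 brightest probes of each list, the differences were -0.28 ± 0.11 for the copper chaperone ATOX1 (adjusted p = 0.436) and -0.27 ± 0.12 for AKR1A1 (0.557), -0.14 for AKR1B1, -0.13 for SQSTM1 and -0.08 for COX17. For MAFG, FTL1, FTH1, GPX4, GLRX5, TXN1, PRDX2 and TALDO1 they were between -0.03 and 0.06. The 9 neutrophil markers summed to 4095 to 5837 in air blood and 5861 to 7813 in silica blood, with no marker called and S100A9 detected on no blood array. Without S100A8 that sum was 1268 to 1611 against 1526 to 2069, which overlap. The red cell markers, among them globins, whose mRNA was depleted per the labels, summed to 86600 to 91420 and 87330 to 91170. Their part in the blood values was not tested.

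The silica effects in lung and blood were compared through the lung minus blood value of every rat, after normalising the 24 arrays together. The effect was larger in lung than in blood for MT1A by 0.86 ± 0.09 (SE; limma, adjusted p = 0.000238), for HMOX1 by 0.80 ± 0.14 (adjusted p = 0.0064) and for SOD2 by 0.90 ± 0.16 (adjusted p = 0.00749). For MT1A and HMOX1 all 6 silica rats had a larger lung minus blood value than all 6 air rats, and for SOD2 5 of 6 had. Of 9 members tested, these 3 were called. Over the 7594 probes tested 3.5% were called, 2.24% with a larger and 1.26% with a smaller effect in lung, and 2.36% had groups that did not overlap. The other 6 members gave -0.17 (NQO1) to 0.17 (GCLC), with adjusted p of 0.415 or more. SOD3 was left out by the filter, since blood had none detected.

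Scaling arrays to one median in place of quantiles left HMOX1 called and ended the calls of MT1A (0.66, adjusted p = 0.115) and SOD2 (0.73, adjusted p = 0.361). Without the 3 rats whose blood arrays stood apart, HMOX1 was at 0.78 (adjusted p = 0.00696), MT1A at 0.85 (adjusted p = 0.000655) and SOD2 at 0.81 (adjusted p = 0.0274).

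Levels in lung and blood of the air rats differed for 8 of the 10 members, 5 higher in lung and 3 lower. This says little of the members as such, since 77.5% of the 11555 probes tested were called, 40.9% higher and 36.6% lower in lung, and 72.4% had all 6 rats in 1 direction. Quantile normalisation makes the signal distributions of both tissues equal. Scaling to one median instead moved the median of all probes from 0.01 to 0.27, and the share of calls that were higher in lung from 52.8% to 84%.

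The extracellular enzyme SOD3 and the ligase subunit GCLM marked the extremes. SOD3 had 11.02 ± 0.13 (SD, n = 6) in air lung on the scale of the 24 arrays and was not well above background on any blood array. It was at least 23.5-fold higher in air lung than in air blood and at least 15.9-fold in the silica rats, where each blood array counts with the SOD3 signal or the dimmest signal called detected there, whichever was higher. GCLM lay the other way, at 9.16 ± 0.06 in air lung and 13.61 ± 0.09 in air blood, which is 21.8-fold higher in blood (log2 -4.45 ± 0.03, SE; limma, adjusted p = 3.42e-17). CAT, abundant in red cells, was 6.95-fold higher in blood (-2.80 ± 0.05, adjusted p = 4.09e-14). SOD1 was 3.3-fold higher in lung (1.72 ± 0.04) and NQO1 2.06-fold (1.04 ± 0.08), in 6 of 6 rats each. GCLC was 0.43 ± 0.09 higher in lung. These 6 members kept their direction under median scaling, but SOD1, NQO1 and GCLC moved to 3.00, 2.96 and 1.99 and CAT and GCLM to -2.01 and -3.93, all towards lung. In the deposited signals of air rats, blood over lung was 3.66 for CAT and 13.1 for GCLM.

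For the other 4, the call or the direction depended on the scaling or on 1 rat. HMOX1 was 0.31 ± 0.10 higher in lung (limma, adjusted p = 0.014), in 5 of 6 rats. It was 0.24 higher without air replicate 5 (adjusted p = 0.054) and 1.57 higher under median scaling. SOD2 was 0.89 ± 0.12 lower in lung (-0.89, limma, adjusted p = 1.98e-05) but 1.04 higher under median scaling (adjusted p = 0.000469). MT1A was at -0.04 ± 0.06 (adjusted p = 0.541) and at 1.99 under median scaling (adjusted p = 9.72e-09), and TXNRD1 at 0.04 ± 0.05 (adjusted p = 0.468) and 0.34. In the deposited signals, with no normalisation, lung over blood was 2.97 for MT1A, 1.82 for SOD2 and 3.31 for HMOX1 in air rats.

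Across the 4 groups, on the scale of the 24 arrays, HMOX1 and MT1A stood highest in silica lung. HMOX1 had 8.75 ± 0.17 there, above air lung at 7.78 ± 0.27, silica blood at 7.64 ± 0.23 and air blood at 7.47 ± 0.33 (SD, n = 6), and the ranges of these other 3 groups overlapped from neighbour to neighbour. MT1A had 9.76 ± 0.08 in silica lung, and the other 3 groups, at 8.77 to 8.94, overlapped likewise. SOD2 in silica lung, at 9.45 ± 0.19, overlapped air blood at 9.52 ± 0.23 and silica blood at 9.45 ± 0.17, and air lung stood below all at 8.62 ± 0.11. SOD3 fell from air lung to silica lung, 10.45 ± 0.16, with no overlap. For SOD1, CAT, GCLM and NQO1 the ranges of both lung groups lay apart from those of both blood groups and overlapped within each tissue. GCLC was alike except for silica blood replicate 6, whose value of 8.22 lay within the range of the air lungs. TXNRD1 had group means of 6.67 to 6.86, and all neighbours overlapped.

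**Figure D5:**
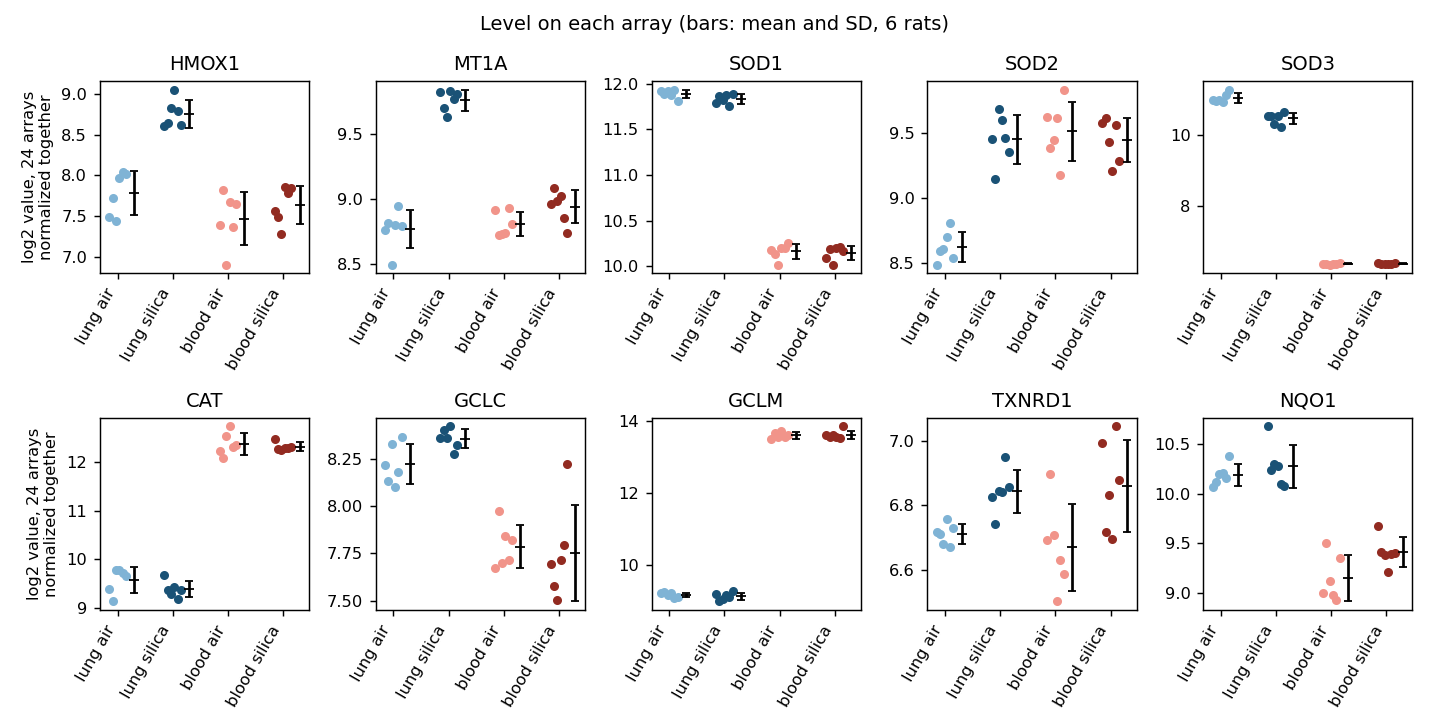
Log2 value of each member on each of the 24 arrays, normalised together (y axes, a scale of its own per panel), in lung air, lung silica, blood air and blood silica; bars are mean and SD of 6 rats. Silica lung stands apart for HMOX1 and MT1A, air lung is lowest for SOD2, and SOD3 is near 6.4 on all blood arrays, where it was not detected. Lung against blood in air rats turns with the scaling for SOD2, and for MT1A a difference is called only under median scaling.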

How the data were processed

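Total RNA of 24 samples was measured on Illumina rat BeadChips. The deposited lung and blood tables give, per the file headers, a mean intensity, its bead standard error, the number of beads averaged and a detection p-value for each of 21792 probes, with no normalization; the authors' steps named in the submitters' processing notes are BeadStudio, lumi and limma. The deposited value table holds the authors' log2 values for blood and, for lung, a score whose scale is not settled: its slope on log2 signal was 1.03 to 1.07 for bright probes and 0.383 to 0.51 for dim ones, with medians of 7.68 to 7.7 (blood 6.87 to 6.9). It served as an alternative. The labels give the blood extraction text for lung too.

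Intensities were corrected by normexp, with negative controls inferred from the detection p and offset 16, and quantile-normalised (neqc, limma 3.58.1, R 4.3.3) within each tissue, or over 24 arrays for lung against blood. Probes with detection p under 0.05 on at least 6 of 12 arrays were tested with lmFit and eBayes. Rat numbers in the labels pair lung with blood (r of deviations -0.0329 to 0.174 over 12 rats). The models of silica versus air were also run on simulated data with independent noise per probe and no array apart. No result here rests on that run. Alternatives covered background, scaling, filter, the authors' values, replicate numbers and each rat left out. All 10 members are named; from the lists, called genes (at most 6, by size) or the 2 brightest are; likeness is the 3 highest Pearson r. A listed gene that this rule names is counted but not reported here by name. Members and lists were chosen with earlier results of these data known.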

Additional observations from a re-analysis of the deposited data

Results flagged for a closer look

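In 38 groups of 6 arrays with a detected member, 3 held an array far from the rest, by a criterion that chance meets in about 1 in 20 groups, and all 3 lay in silica blood. CAT was at 12.37 in silica replicate 1, against 12.05 to 12.14 in the other rats. GCLC was at 7.01 in silica replicate 6 (others 6.70 to 6.81) and GCLM at 13.97 in the same array (others 13.64 to 13.74), an array that also stood apart on the first principal component of blood. The effect of silica differed between lung and blood by the test of the difference for HMOX1 (0.80), MT1A (0.86) and SOD2 (0.90).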

How the results depend on the processing

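Of the member values under the alternatives, 171 of 171 in blood, 177 of 180 in lung, 174 of 178 for lung against blood and 168 of 171 for the difference of effects kept their call and its direction or stayed without a call. Members called when each rat was left out numbered 0 in blood, 5 to 6 in lung, 7 to 8 for lung against blood and 3 for the difference of effects. With arrays scaled to one median, lung calls over all probes fell to 537 (311 higher, 226 lower), and calls of the difference to 49, with 1 member in place of 3. Between lung and blood SOD2 then reversed (1.04), and MT1A (1.99) and TXNRD1 (0.34), without a call in the main fit, were called higher in lung. The cause was not tested. Without the filter on dim probes 492 probes were called for the difference, SOD3 among them (-0.58, limma, adjusted p = 0.00336). SOD3 was detected on no blood array, where its values lay at 6.38 to 6.42. Its call therefore restates the lung difference and does not compare the silica effects of 2 tissues. Calls for the difference of effects numbered 437 without the 3 rats whose blood arrays stood apart and 510 with each tissue normalised alone. Requiring detection on all arrays left 5056 calls between lung and blood, since fewer probes were tested. Blood calls were 5 without background correction, 7 on the authors' values and 2 without the 3 arrays. Leaving out each rat gave 1352 to 1970 lung calls, 0 to 18 in blood, the highest without silica replicate 4, and 191 to 410 for the difference, the highest without silica replicate 6. Air and silica rats share only replicate numbers, since different rats carry them and their deviations had r of -0.295 to 0.185 in lung and -0.457 to 0.63 in blood. With the replicate number as a block 1130 probes were called in lung and 5 in blood, and the members' calls, 5 and 0, were the same genes. In that fit 18 of the listed pathway genes were called in lung in place of 32, none of them from the NRF2 list (SQSTM1 0.0678, NFE2L1 0.0526). GSTM1 was then called lower in blood (limma, adjusted p = 0.0203). No BeadChip block was run, because the headers name no chip. After seeing the data, blood correlations without the arrays apart and marker sums without the brightest marker were added. Signal over background limits the blood values of TXNRD1, HMOX1 and GCLC. Their deposited signals were 60.8 to 113, 86.8 to 181 and 119 to 202, beside array medians of 57.6 to 67.6. For TXNRD1 and HMOX1 the blood difference was larger with lung and blood normalised together than with blood normalised alone.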
